A study of Mus musculus with 6 samples.

Results

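The genes described here are 35 markers of macrophages, measured in whole mouse oviducts. They were taken from the deposited table by gene symbol, as genes of general macrophage identity, of tissue-resident macrophages, of lipid-laden macrophages and of the effector systems that macrophages use. All 35 were found among the 55276 rows of the table, and all 35 were among the 17584 genes with enough signal to be tested. Their values were compared between oviducts of PgrCreCdc42f/f mice and of Cdc42f/f mice, with 3 libraries for each genotype. The study had stained PgrCreCdc42f/f oviducts for F4/80, the protein made from Adgre1, and reported a significant increase of F4/80-positive macrophages in the isthmus. It also reported more CD45-positive leukocytes there. By qPCR it found higher RNA of inflammatory and chemotactic factors, Tnf, Il6, Ccl2 and Csf1 among them. The comparison asks how the RNA of macrophage genes differed in the whole oviduct.

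All mice were C57BL/6 females, and the oviducts were taken on day 2 of pregnancy, counted from the vaginal plug after mating with fertile wild-type males. PgrCreCdc42f/f mice carried 2 Cdc42 alleles with loxP sites and a PgrCre/+ knock-in allele, from which Cre is made wherever the progesterone receptor gene Pgr is active. Cdc42f/f littermates carried the same loxP alleles without Cre. No library came from mice with PgrCre alone, so the presence of the PgrCre allele and the loss of Cdc42 cannot be told apart. In the staining of the study the CDC42 protein was lost from the isthmus, the segment next to the uterus, whereas the libraries hold RNA of the whole oviduct. The libraries are described as biological replicates, and the number of animals in each is not stated, so the p values below measure the spread between these samples.

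Macrophages are phagocytes that reside in nearly every tissue, where they take up dead cells and debris and renew themselves or are replaced from blood monocytes. Their survival depends on the receptor CSF1R and its ligands CSF1 and IL34, and their lineage genes are switched on by the transcription factor PU.1, the product of Spi1. In the oviduct they lie in the mucosa and between the muscle layers, and they are among the commonest leukocytes of the female reproductive tract. Resident macrophages carry scavenger receptors such as CD163 and the mannose receptor, while macrophages filled with lipid or debris carry TREM2, GPNMB and galectin-3.

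Depth was similar across the series. Depth recovered from the deposited values came to between 42.4 and 46.2 M (mega) reads in PgrCreCdc42f/f libraries and between 42.7 and 46.4 M in Cdc42f/f libraries. The 35 genes had between 22 reads (Folr2) and 13175 reads (Lyz2) in a library, and counts under 100 in any library were limited to Folr2, Msr1, Fcgr4, Clec4n and Cd86. The targeted gene Cdc42 was measured at 113.6, 125.5 and 120.9 RPKM (reads per kilobase of exon, scaled to the depth of the library) in PgrCreCdc42f/f libraries, against 127.6, 130.2 and 142.4 RPKM in Cdc42f/f libraries. The difference of -0.15 on the log2 scale did not pass the test (limma adjusted p = 0.359). These values therefore give only a weak check of the labels. By qPCR and western blot the study reported reduced Cdc42 RNA and protein in PgrCreCdc42f/f oviducts. The loxP sites flank only part of the gene, whereas RPKM is given for the gene as a whole. RNA of deleted and intact alleles was not told apart here, and the reason for the small difference was not tested.

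Macrophage RNA was plainly present in every library. Adgre1, Cd68, Mpeg1 and the 3 C1q genes were detected in all 6, as was Csf1r, chosen for mention after its values were seen, at 9.33, 13.4 and 10.2 RPKM in PgrCreCdc42f/f libraries and 10.8, 9.93 and 10.9 RPKM in Cdc42f/f libraries. Many of the 35 genes are not confined to macrophages. Tyrobp, Fcer1g, Laptm5, Itgam, Lyz2, Cybb and Ncf1 are also used by neutrophils, monocytes or natural killer cells. In RNA of a whole tissue, more cells of a type and more RNA of a gene in each cell cannot be told apart.

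Across the 35 genes the values ran higher in PgrCreCdc42f/f oviducts. The median log2 difference was 0.61, against 0.0058 over all tested genes, both taken from log2(RPKM + 0.1), a transform that makes the change of weakly expressed genes look smaller. The difference was positive for 32 genes and negative for Folr2, Clec7a and Gpnmb, whereas 50.9% of all tested genes had a positive difference. All 3 PgrCreCdc42f/f libraries lay above all 3 Cdc42f/f libraries for 20 genes, or 57.1%, against 13.5% of all tested genes. Msr1 and Clec4n are among them and reached the level needed for testing only through PgrCreCdc42f/f libraries. None of the 35 genes lay the other way round, against 13.9% of all tested genes, and the ranges of the other 15 overlapped. Of 17 genes common to leukocytes, 9 lay apart with PgrCreCdc42f/f higher.

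Few of the differences passed the test over all genes. Ctss, Msr1 and Tyrobp rose at an adjusted p below 0.05 (limma, Benjamini-Hochberg over the 17584 genes tested), which is 8.57% of the 35 genes, and 0.762% of all tested genes were called higher. None was called lower by limma, and 0.893% of all tested genes were. At an unadjusted p below 0.05, 18 of the 35 genes were higher and 0 were lower, and the shares of all tested genes were 9.74% and 11%. By limma voom on the recovered reads 4 genes were called higher and 0 lower, and this test called 1.49% and 1.52% of all its genes. Another 6 genes had an adjusted p between 0.05 and 0.1, namely Fcgr3, Clec4n, Ncf1, C1qa, C1qc and Fcgr2b. Of the genes named here, Msr1 and Clec4n were tested only through their PgrCreCdc42f/f values.

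**Figure D1:**
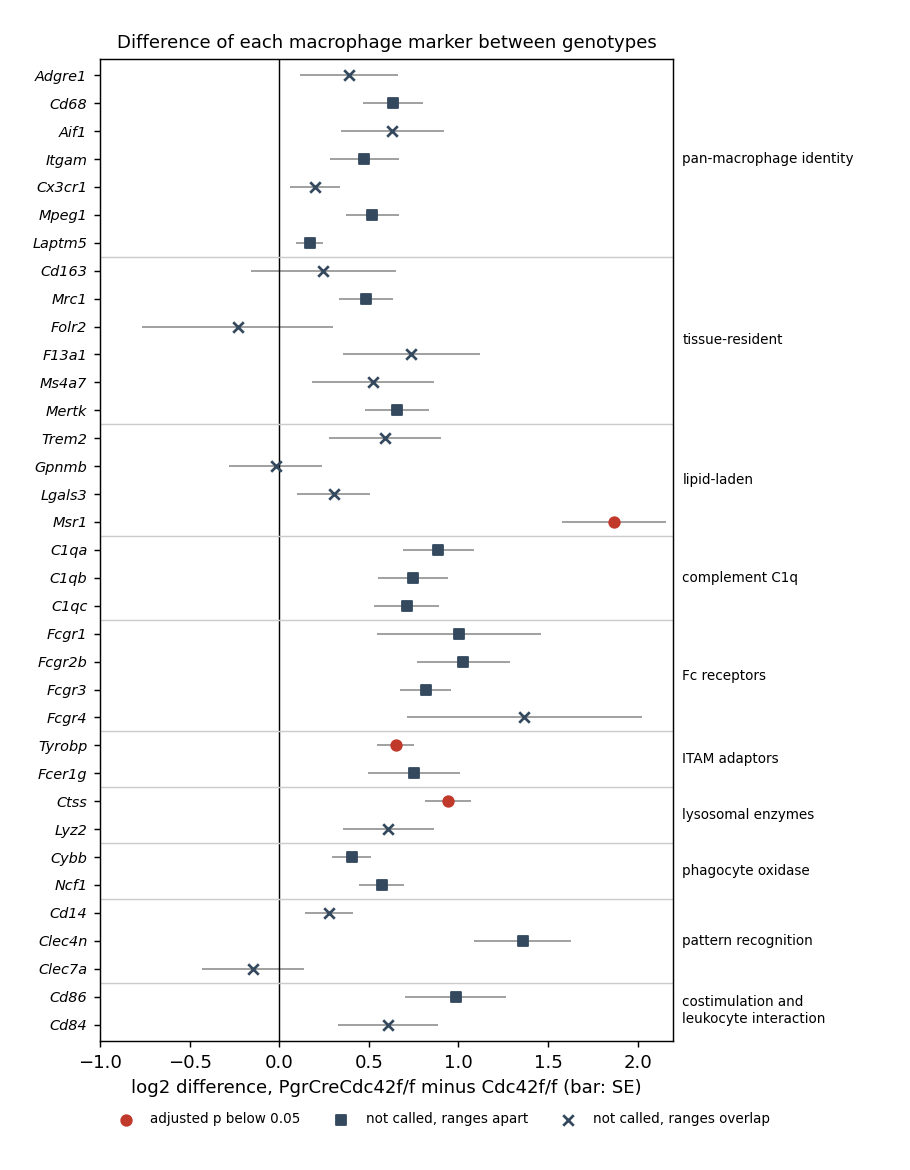
Log2 difference of each of the 35 macrophage markers as PgrCreCdc42f/f minus Cdc42f/f, computed on log2(RPKM + 0.1), with the SE of the limma fit as a bar and the genes grouped by role. The 3 genes with an adjusted p below 0.05 are filled circles, other genes whose 3 PgrCreCdc42f/f libraries all lay above all 3 Cdc42f/f libraries are squares, and genes with overlapping ranges are crosses. The points run between -0.23 (Folr2) and 1.87 (Msr1), and 32 of them lie right of 0.

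Ctss encodes cathepsin S, the lysosomal protease that trims the invariant chain from MHC class II molecules. Its level was 52.8, 55.5 and 71.2 RPKM in PgrCreCdc42f/f libraries 1, 2 and 3, against 32.2, 31.6 and 28.8 RPKM in Cdc42f/f libraries 1, 2 and 3, and per-library values below keep that order. The lowest PgrCreCdc42f/f value stood well above the highest Cdc42f/f value. The means were 59.8 ± 9.96 and 30.9 ± 1.83 RPKM (SD, n = 3 libraries each), and the log2 difference was 0.94 (SE 0.13, limma adjusted p = 0.0298). Leaving out each library in turn kept the log2 difference between 0.81 and 1.03. The call held without PgrCreCdc42f/f library 1 or 3, and it was lost without PgrCreCdc42f/f library 2 or any Cdc42f/f library, with adjusted p up to 0.107.

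Msr1, the class A scavenger receptor that takes up modified lipoproteins, had the largest difference of the 35 genes. It was measured at 0.769, 0.928 and 1.04 RPKM in PgrCreCdc42f/f libraries, against 0.163, 0.136 and 0.238 RPKM in Cdc42f/f libraries. Behind these values stood 228, 250 and 310 reads in PgrCreCdc42f/f libraries and 45, 40 and 73 reads in Cdc42f/f libraries, so the gene was low in both genotypes but counted in all. Every Cdc42f/f value was under the 0.5 RPKM needed for testing, so Msr1 was tested through its PgrCreCdc42f/f values alone. With a mean of at least 2 RPKM as the filter it was not tested. The ratio of the means was 5.09, and the log2 difference was 1.87 (SE 0.29, limma adjusted p = 0.0402). It lay between 1.75 and 2.01 with each library left out in turn, but the call was lost whichever library was left out, with adjusted p between 0.0626 and 0.143, and also with a pseudocount of 0.01 (adjusted p = 0.0518).

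Tyrobp encodes DAP12, the adaptor through which TREM2 and other receptors signal. Its level was 44.4, 56.8 and 48.1 RPKM in PgrCreCdc42f/f libraries, against 32.6, 31.4 and 30.5 RPKM in Cdc42f/f libraries. The Cdc42f/f values lay close together and below every PgrCreCdc42f/f value. The log2 difference was 0.65 (SE 0.10, limma adjusted p = 0.0431). The call held without PgrCreCdc42f/f library 1 and was lost without any other library, with adjusted p up to 0.145. Without a filter on low genes none of the 3 genes was called (adjusted p = 0.0547 for Ctss, 0.0679 for Msr1 and 0.0739 for Tyrobp), and without a variance trend Ctss (0.0517) and Tyrobp (0.0698) were not called.

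**Figure D2:**
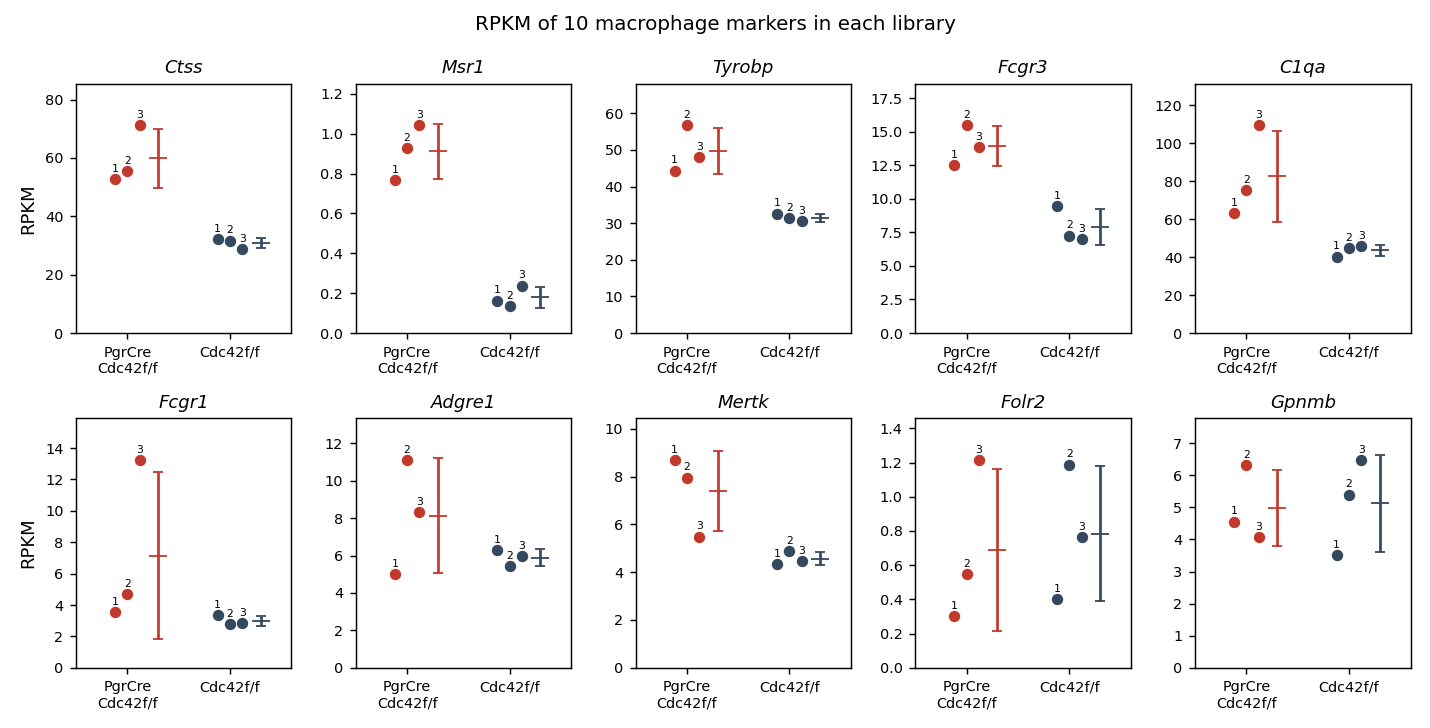
RPKM of 10 macrophage markers in each library, with PgrCreCdc42f/f on the left and Cdc42f/f on the right of each panel. Points are libraries numbered by replicate, and bars are the mean ± SD of 3 libraries. The groups are apart for Ctss, Msr1, Tyrobp, Fcgr3, C1qa, Fcgr1 and Mertk and overlap for Adgre1, Folr2 and Gpnmb, and Fcgr1 stands far higher in PgrCreCdc42f/f library 3 (13.2 RPKM) than in the other libraries.

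The 7 genes of general macrophage identity all had a positive difference, 4 had groups that did not overlap, and none was called. Their median log2 difference was 0.48. Adgre1, which encodes F4/80, was measured at 4.99, 11.1 and 8.31 RPKM in PgrCreCdc42f/f libraries, against 6.28, 5.42 and 5.99 RPKM in Cdc42f/f libraries. PgrCreCdc42f/f library 1 lay below all 3 Cdc42f/f libraries and the others lay above them, so the groups overlapped (log2 difference 0.39, SE 0.27, limma adjusted p = 0.470, exact two-sided permutation p = 0.4). The increase of F4/80 in the study was of protein in the isthmus, while these values are RNA of the whole oviduct. Cd68, a glycoprotein of late endosomes and lysosomes, was measured at 20.8, 28.8 and 31.4 RPKM in PgrCreCdc42f/f libraries, against 15.5, 16.9 and 19.1 RPKM in Cdc42f/f libraries. The groups did not overlap (log2 difference 0.63, SE 0.17, limma adjusted p = 0.106), and the exact permutation p of 0.1 is the smallest that 3 against 3 libraries can give. Without PgrCreCdc42f/f library 1 the difference of Cd68 was called, at an adjusted p of 0.0447.

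Itgam, the CD11b integrin chain, was measured at 1.10, 1.22 and 0.994 RPKM in PgrCreCdc42f/f libraries, against 0.843, 0.830 and 0.639 RPKM in Cdc42f/f libraries. The groups were apart but the difference did not pass the test (log2 difference 0.48, limma adjusted p = 0.232; exact permutation p = 0.1), and 68.7% of its exon bases are shared with the annotated gene Gm49368 on the same strand, which makes the value less certain. Mpeg1, the pore-forming perforin-2 of phagocytes, gave 19.6, 28.4 and 25.4 RPKM in PgrCreCdc42f/f libraries, against 15.2, 17.7 and 17.6 RPKM in Cdc42f/f libraries, with groups apart. Laptm5, a lysosomal membrane protein of leukocytes, differed little in size (16.1 ± 0.586 and 14.3 ± 0.756 RPKM in PgrCreCdc42f/f and Cdc42f/f libraries, SD, n = 3 each), though its groups did not overlap. Aif1, which encodes the actin-binding protein IBA1, had a log2 difference of 0.63, and Cx3cr1, the fractalkine receptor, one of 0.20. For both genes a library of each genotype fell within the range of the other.

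The 6 genes of the tissue-resident state differed among themselves. Their median log2 difference was 0.50, none was called, and the groups of Mrc1 and Mertk alone did not overlap. Mrc1, the mannose receptor CD206, was measured at 6.22, 7.81 and 6.74 RPKM in PgrCreCdc42f/f libraries, against 5.89, 4.27 and 4.67 RPKM in Cdc42f/f libraries (log2 difference 0.48, limma adjusted p = 0.144). Mertk, a receptor for apoptotic cells, was at 8.70, 7.96 and 5.49 RPKM in PgrCreCdc42f/f libraries, against 4.35, 4.87 and 4.47 RPKM in Cdc42f/f libraries (log2 difference 0.66, limma adjusted p = 0.110). In both genes every PgrCreCdc42f/f value was above every Cdc42f/f value.

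The other resident markers were scattered. Cd163, the haemoglobin scavenger receptor, was at 1.38, 0.461 and 1.17 RPKM in PgrCreCdc42f/f libraries, against 0.961, 0.585 and 0.770 RPKM in Cdc42f/f libraries, so that its highest and its lowest value both came from PgrCreCdc42f/f libraries. Folr2, the folate receptor beta of resident macrophages, was at 0.304, 0.548 and 1.22 RPKM in PgrCreCdc42f/f libraries, against 0.402, 1.19 and 0.764 RPKM in Cdc42f/f libraries, on 22 to 88 reads. Its log2 difference of -0.23 had an SE of 0.53, and 63.1% of its exon bases overlap Gm10602 on the opposite strand. F13a1, the coagulation factor XIII A chain, was highest in PgrCreCdc42f/f library 1 (5.45 RPKM), while Ms4a7, a tetraspan membrane protein, was highest in PgrCreCdc42f/f library 2 (3.75 RPKM). Their log2 differences were 0.74 and 0.52, and the groups overlapped in both.

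Among the 4 lipid-laden markers Msr1 stood alone, and it was tested only through its PgrCreCdc42f/f values. Trem2, the lipid-sensing receptor that signals through DAP12, was at 1.41, 2.66 and 1.56 RPKM in PgrCreCdc42f/f libraries, against 0.810, 1.49 and 1.31 RPKM in Cdc42f/f libraries (log2 difference 0.59, limma adjusted p = 0.342). Lgals3, which encodes galectin-3 and is also made by epithelia, was at 49.5, 73.9 and 47.7 RPKM in PgrCreCdc42f/f libraries, against 37.1, 49.5 and 50.5 RPKM in Cdc42f/f libraries. Gpnmb, a lysosomal glycoprotein, was at 4.56, 6.32 and 4.08 RPKM in PgrCreCdc42f/f libraries, against 3.51, 5.39 and 6.48 RPKM in Cdc42f/f libraries. The groups overlapped for these 3 genes, with PgrCreCdc42f/f library 2 the highest of its genotype in each. The log2 difference of Gpnmb was -0.020 (SE 0.26), so that its interval of 1 SE takes in both directions.

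Among the genes of complement and antibody recognition the groups were apart for all 3 C1q genes and 3 of the 4 Fc receptors. C1qa, C1qb and C1qc encode the chains of C1q, the part of complement that binds immune complexes and dying cells, and macrophages are its main source. C1qa was at 63.2, 75.4 and 109 RPKM in PgrCreCdc42f/f libraries, against 40.2, 44.5 and 45.9 RPKM in Cdc42f/f libraries. C1qb was at 84.7, 114 and 149 RPKM in PgrCreCdc42f/f libraries, against 64.2, 70.1 and 67.5 RPKM in Cdc42f/f libraries. C1qc was at 29.9, 37.5 and 49.7 RPKM in PgrCreCdc42f/f libraries, against 22.7, 22.7 and 24.6 RPKM in Cdc42f/f libraries. In all 3 genes the groups were apart and PgrCreCdc42f/f library 3 was the highest. The log2 differences were 0.89, 0.75 and 0.71, with limma adjusted p of 0.0783, 0.105 and 0.0978, so none passed the test with all 6 libraries, while C1qb (adjusted p = 0.0444) and C1qc (adjusted p = 0.0487) did without PgrCreCdc42f/f library 1.

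The 4 Fc gamma receptors, which bind IgG, had a median log2 difference of 1.02, the largest of the groups of roles with all libraries included, and none was called. Fcgr3, an activating receptor, was at 12.5, 15.5 and 13.8 RPKM in PgrCreCdc42f/f libraries, against 9.48, 7.25 and 7.0 RPKM in Cdc42f/f libraries, with groups apart (log2 difference 0.82, limma adjusted p = 0.0524). It passed the test under 2 alternatives, a stricter filter on low genes (adjusted p = 0.0489) and limma voom on the recovered reads (adjusted p = 0.0417). Fcgr2b, the inhibitory receptor of the family, was at 4.89, 4.98 and 6.06 RPKM in PgrCreCdc42f/f libraries, against 3.80, 2.35 and 1.83 RPKM in Cdc42f/f libraries, also apart (log2 difference 1.03, limma adjusted p = 0.0982). Fcgr2b, Fcgr3 and Fcgr4 are close paralogs, and how reads common to them were assigned is not stated.

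Fcgr1 and Fcgr4, the high-affinity receptor and an activating receptor of mouse myeloid cells, were far higher in a single PgrCreCdc42f/f library. Fcgr1 was at 3.53, 4.69 and 13.2 RPKM in PgrCreCdc42f/f libraries, against 3.33, 2.76 and 2.83 RPKM in Cdc42f/f libraries. Fcgr4 was at 5.28, 5.02 and 19.0 RPKM in PgrCreCdc42f/f libraries, against 3.63, 5.36 and 1.40 RPKM in Cdc42f/f libraries, with overlapping groups. The log2 differences were 1.0 and 1.37 over all libraries and 0.44 and 0.75 without PgrCreCdc42f/f library 3. In that library a list of 21 interferon response genes also stood apart. The median of the list relative to the Cdc42f/f mean was -0.26, 0.10 and 2.83 on the log2 scale in PgrCreCdc42f/f libraries, and it lay between -0.13 and 0.11 in Cdc42f/f libraries. The summed RPKM of the list was 193 to 1560 in PgrCreCdc42f/f libraries and 226 to 250 in Cdc42f/f libraries, no defining gene was at 0, and the part of this response in the values of Fcgr1, Fcgr4 and C1q was not tested. Without that library the log2 differences of C1qa, C1qb and C1qc were 0.67, 0.55 and 0.52.

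Fcer1g encodes the Fc receptor gamma chain, the partner that lets the activating Fc receptors signal, and its pattern was like that of C1q. It was at 45.2, 56.1 and 90.4 RPKM in PgrCreCdc42f/f libraries, against 39.2, 39.2 and 31.1 RPKM in Cdc42f/f libraries. The groups were apart, PgrCreCdc42f/f library 3 was the highest, and the log2 difference was 0.75 (limma adjusted p = 0.169) over all libraries and 0.47 without library 3.

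**Figure D3:**
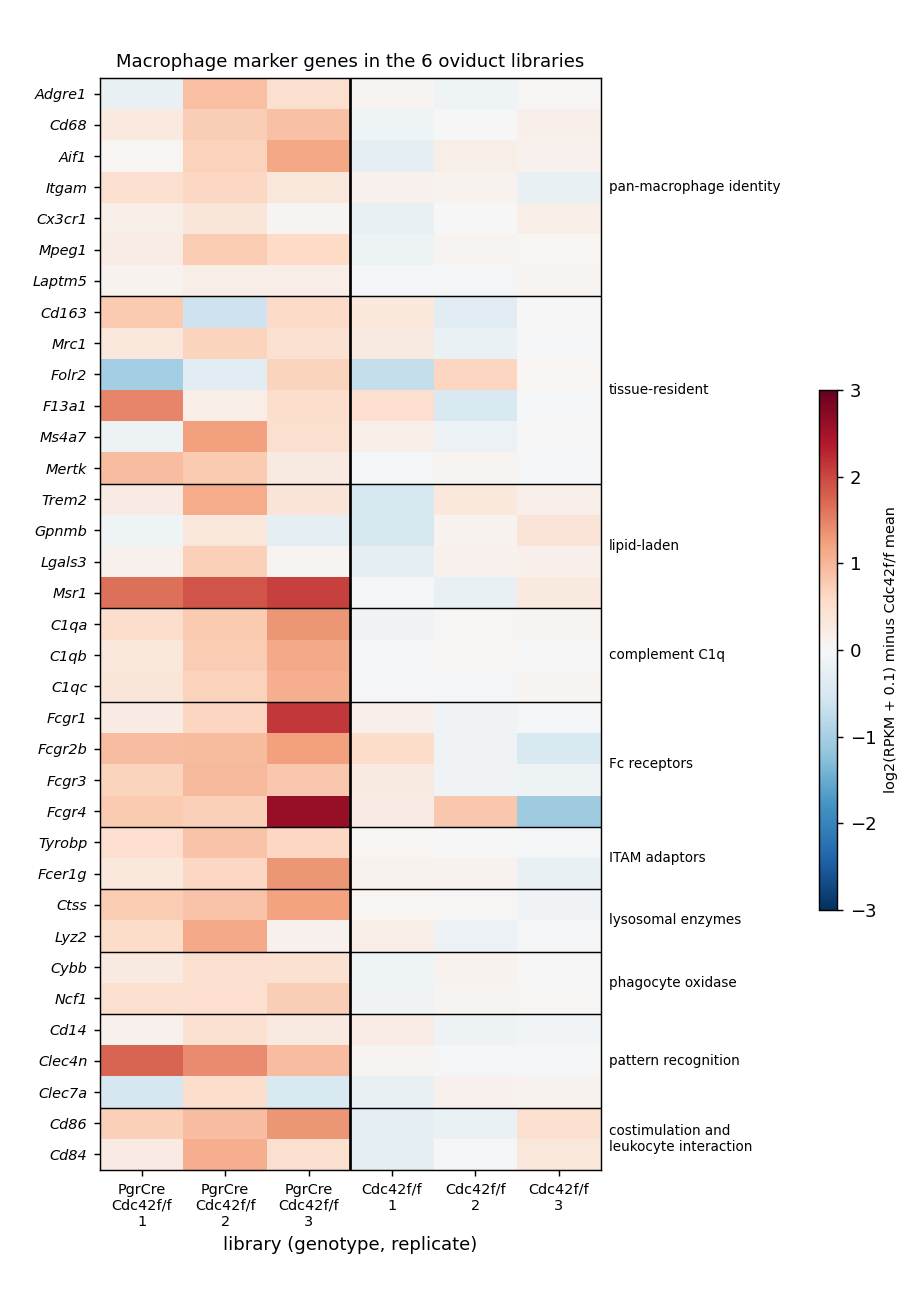
Level of each macrophage marker in each library as log2(RPKM + 0.1) minus the Cdc42f/f mean of that gene, with PgrCreCdc42f/f libraries on the left and Cdc42f/f libraries on the right, red for above and blue for below the Cdc42f/f mean. Genes are grouped by role. PgrCreCdc42f/f library 3 is darkest for C1q, Fcgr1 and Fcgr4, and Msr1 and Clec4n are red in all 3 PgrCreCdc42f/f libraries.

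Lyz2, lysozyme M, had the highest mean of the 35 genes in both genotypes by RPKM, which is per length, though C1qb exceeded it in PgrCreCdc42f/f library 3. It was at 157, 236 and 117 RPKM in PgrCreCdc42f/f libraries, against 122, 94.6 and 105 RPKM in Cdc42f/f libraries. PgrCreCdc42f/f library 3 fell inside the Cdc42f/f range, and the log2 difference of 0.61 did not pass the test (limma adjusted p = 0.241). Cybb and Ncf1 encode the catalytic chain and an activating subunit of the phagocyte NADPH oxidase. Cybb was at 5.08, 5.85 and 5.76 RPKM in PgrCreCdc42f/f libraries, against 3.81, 4.51 and 4.23 RPKM in Cdc42f/f libraries. Ncf1 was at 2.63, 2.69 and 3.15 RPKM in PgrCreCdc42f/f libraries, against 1.72, 1.96 and 1.91 RPKM in Cdc42f/f libraries. Both were higher in every PgrCreCdc42f/f library, with log2 differences of 0.40 and 0.57 and limma adjusted p of 0.107 and 0.0760. Of the exon bases of Ncf1, 11.1% overlap Gtf2ird2 on the opposite strand.

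Lysozyme, CD11b and the oxidase are also neutrophil proteins, and neutrophil genes are given beside them. Of 13 neutrophil genes 9 were tested, 6 had a positive difference, and the median was 0.53. S100a8, a calcium-binding protein abundant in neutrophils, rose to 7.21, 3.90 and 3.57 RPKM in PgrCreCdc42f/f libraries, against 0.995, 1.24 and 0.896 RPKM in Cdc42f/f libraries (log2 difference 2.06, limma adjusted p = 0.0313). Mmp9, S100a9 and Csf3r had log2 differences of 1.14, 1.97 and 0.60, with groups apart and PgrCreCdc42f/f higher, and were not called. The list was not uniform. Ly6g, a surface protein of mouse neutrophils chosen for mention after its values were seen, was at 0.863, 0.250 and 1.04 RPKM in PgrCreCdc42f/f libraries, against 1.27, 1.15 and 1.76 RPKM in Cdc42f/f libraries, the groups apart in the other direction (log2 difference -1.01, limma adjusted p = 0.280). The log2 differences of Mmp8 (-0.53) and Camp (-0.28), chosen in the same way, were negative too, with overlapping groups. The summed RPKM of the 13 genes was 823 to 1970 in PgrCreCdc42f/f libraries and 906 to 1203 in Cdc42f/f libraries, and Ltf, which encodes lactoferrin, a protein that epithelia also make, was most of it. Without Ltf, left out after its values were seen, the sums were 58.2, 45.6 and 36.3 RPKM in PgrCreCdc42f/f libraries. In Cdc42f/f libraries they were 28.3, 26.9 and 27.6 RPKM, so the sums did not overlap. S100a8, Mmp9 and S100a9, given above, are part of these sums, so this is not a separate result. S100a9 was at 22.7, 10.2 and 8.26 RPKM in PgrCreCdc42f/f libraries, against 2.56, 5.75 and 2.02 RPKM in Cdc42f/f libraries. Mpo, Elane, Ngp and Cxcr2 were below the filter. The part of neutrophils in the values of the shared genes was not tested.

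The pattern recognition receptors split. Clec4n, the C-type lectin Dectin-2 that binds fungal mannans, was at 1.45, 1.13 and 0.782 RPKM in PgrCreCdc42f/f libraries, against 0.389, 0.350 and 0.350 RPKM in Cdc42f/f libraries. Every PgrCreCdc42f/f value was more than the highest Cdc42f/f value, on 52 to 96 reads in PgrCreCdc42f/f and 23 to 24 reads in Cdc42f/f libraries (log2 difference 1.36, SE 0.27, limma adjusted p = 0.0620). Its Cdc42f/f values were all under the 0.5 RPKM needed for testing, so Clec4n was tested through its PgrCreCdc42f/f values alone. Clec7a, the beta-glucan receptor Dectin-1, was at 3.54, 7.28 and 3.67 RPKM in PgrCreCdc42f/f libraries, against 4.32, 5.49 and 5.44 RPKM in Cdc42f/f libraries, with overlapping groups (log2 difference -0.15, SE 0.29). Cd14, the lipopolysaccharide co-receptor, was at 26.7, 33.8 and 29.5 RPKM in PgrCreCdc42f/f libraries, against 28.8, 22.1 and 23.3 RPKM in Cdc42f/f libraries, again overlapping.

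Cd86, a ligand of CD28 that costimulates T cells, was at 1.13, 1.32 and 1.76 RPKM in PgrCreCdc42f/f libraries, against 0.515, 0.554 and 0.940 RPKM in Cdc42f/f libraries. The groups were apart, and the log2 difference of 0.98 (SE 0.28) did not pass the test (limma adjusted p = 0.125). Cd84, a SLAM family receptor through which leukocytes bind each other, was at 1.15, 2.11 and 1.36 RPKM in PgrCreCdc42f/f libraries, against 0.756, 0.909 and 1.23 RPKM in Cdc42f/f libraries, with an overlap of the lowest and the highest value.

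When the macrophage states were set side by side, no resident or lipid-laden programme separated from the general one. The median log2 differences were 0.48 for general identity, 0.50 for the resident and 0.45 for the lipid-laden genes. They were higher for the adaptors Tyrobp and Fcer1g (0.70), C1q (0.75), lysosomal enzymes (0.78), the costimulation pair (0.80) and Fc receptors (1.02). The oxidase pair stood at 0.49 and the pattern recognition genes at 0.28. Without PgrCreCdc42f/f library 3 the median of the Fc receptors was 0.78 and that of the lysosomal enzymes 0.83. These values describe groups of 2 to 7 genes and were not tested against each other. After the median of the general identity genes was subtracted within each library, the resident genes stood at 0.39, -0.25 and 0.022 in PgrCreCdc42f/f libraries and at 0.35, -0.19 and -0.097 in Cdc42f/f libraries. The lipid-laden genes stood at 0.022, 0.23 and -0.26 in PgrCreCdc42f/f libraries and at -0.24, 0.11 and 0.14 in Cdc42f/f libraries. Both states thus overlapped between genotypes. The Fc receptors overlapped too, at 0.55, 0.14 and 1.18 in PgrCreCdc42f/f libraries and 0.40, -0.12 and -0.39 in Cdc42f/f libraries, and C1q lay apart by little, at 0.19, 0.078 and 0.65 in PgrCreCdc42f/f libraries and 0.074, 0.022 and -0.010 in Cdc42f/f libraries.

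**Figure D4:**
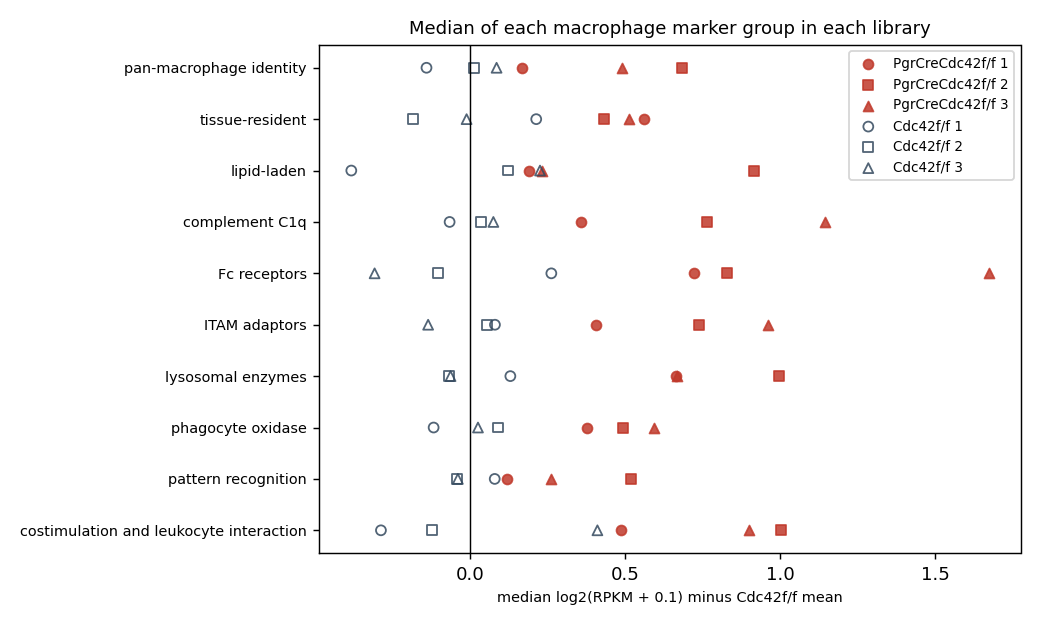
Median of the genes of each role in each library, as log2(RPKM + 0.1) minus the Cdc42f/f mean of each gene. Filled red symbols are PgrCreCdc42f/f libraries, open symbols are Cdc42f/f libraries, and the shape gives the replicate. PgrCreCdc42f/f medians of general identity were 0.17, 0.68 and 0.49, and those of the Fc receptors 0.72, 0.83 and 1.67.

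The PgrCreCdc42f/f libraries were not alike. The median of the 35 genes relative to the Cdc42f/f mean was 0.33, 0.71 and 0.59 in PgrCreCdc42f/f libraries and between -0.049 and 0.020 in Cdc42f/f libraries. Of the 35 genes 23, 30 and 30 were above all Cdc42f/f values in PgrCreCdc42f/f libraries 1, 2 and 3. Library 2 held the highest PgrCreCdc42f/f value of 17 genes, Adgre1, Trem2, Ms4a7 and Lyz2 among them. Library 3 held that of 14, with C1q, Fcgr1 and Fcgr4, and library 1 that of 4, namely Cd163, F13a1, Mertk and Clec4n.

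Other genes of the macrophage programme gave a mixed picture. Csf1, the growth factor of macrophages, rose to 14.0, 12.4 and 15.5 RPKM in PgrCreCdc42f/f libraries, against 6.40, 7.0 and 8.41 RPKM in Cdc42f/f libraries (log2 difference 0.94, limma adjusted p = 0.0333). It was the single gene called among 16 tested growth factors, receptors and transcription factors, whose median was 0.20. Its receptor gene Csf1r had a log2 difference of 0.044 (SE 0.14). Of 14 tested genes of monocytes and their recruitment, chemokines among them, 11 had a positive difference and the median was 0.92. For 7 of the 14 the groups were apart with PgrCreCdc42f/f higher, against 13.5% of all tested genes. Ccr1, chosen for mention after its values were seen, is among the 7. With Cdc42f/f values of 0.487, 0.351 and 0.534 RPKM, Ccr1 met the filter only with its PgrCreCdc42f/f values. By library the median of that list relative to the Cdc42f/f mean was 0.52, 0.36 and 1.38 in PgrCreCdc42f/f libraries and between -0.10 and 0.067 in Cdc42f/f libraries, so it was highest in PgrCreCdc42f/f library 3, where the interferon genes stood apart, and the part of that response in it was not tested. Ccl12, a chemokine that binds CCR2, rose to 16.1, 11.5 and 33.1 RPKM in PgrCreCdc42f/f libraries, against 3.43, 3.62 and 3.86 RPKM in Cdc42f/f libraries (log2 difference 2.30, limma adjusted p = 0.0408). The log2 differences of the chitinase-like gene Chil3 (2.94) and of Plac8 (1.91) in that list did not pass the test. Ccr2 (0.11), Ly6c2 (0.78), Fn1 (-0.39), Nr4a1 (-0.37) and Ace (-0.53), chosen for mention after their values were seen, had overlapping groups. Ly6c2 was at 2.79, 2.47 and 11.8 RPKM in PgrCreCdc42f/f libraries, against 2.34, 2.34 and 2.85 RPKM in Cdc42f/f libraries.

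The other lists of macrophage states had smaller medians than the 35 genes, although single genes in them differed by more. Of 22 other tested genes of lipid uptake and the lipid-laden state 16 had a positive difference, the median was 0.16, and Spp1 was the only one called. For 9 of the 22 the groups were apart with PgrCreCdc42f/f higher, against 13.5% of all tested genes. Spp1, or osteopontin, which epithelial cells also make, rose to 56.7, 54.3 and 57.3 RPKM in PgrCreCdc42f/f libraries, against 0.419, 0.301 and 1.28 RPKM in Cdc42f/f libraries (log2 difference 6.41, limma adjusted p = 0.00728). Spp1, among the 9 apart, met the filter of 0.5 RPKM in 3 or more libraries only with its PgrCreCdc42f/f values. Of 11 other tested genes of the resident state 7 had a positive difference, 0 were called by limma, and the median was 0.075. The groups were apart for 1 of the 11 with PgrCreCdc42f/f higher and for 1, Pltp, with PgrCreCdc42f/f lower (log2 difference -0.41). The shares of all tested genes were 13.5% and 13.9%. Vsig4 was at 0 in all 6 libraries, and Timd4, Marco, Ccl24, Cd209b, Cd209f and Cd209g were under the filter. Of 10 tested genes of inflammatory activation 8 had a positive difference with a median of 0.35. Il6, which the study reported as higher by qPCR, was under the filter. Tnf, an inflammatory cytokine, rose to 1.74, 1.94 and 1.65 RPKM in PgrCreCdc42f/f libraries, against 0.519, 0.501 and 0.455 RPKM in Cdc42f/f libraries (log2 difference 1.66, limma adjusted p = 0.0194). Tnf and Cd40 of this list met the filter only with their PgrCreCdc42f/f values. Of 8 tested genes of alternative activation 7 had a positive difference with a median of 0.33, and 0 were called.

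**Figure D5:**
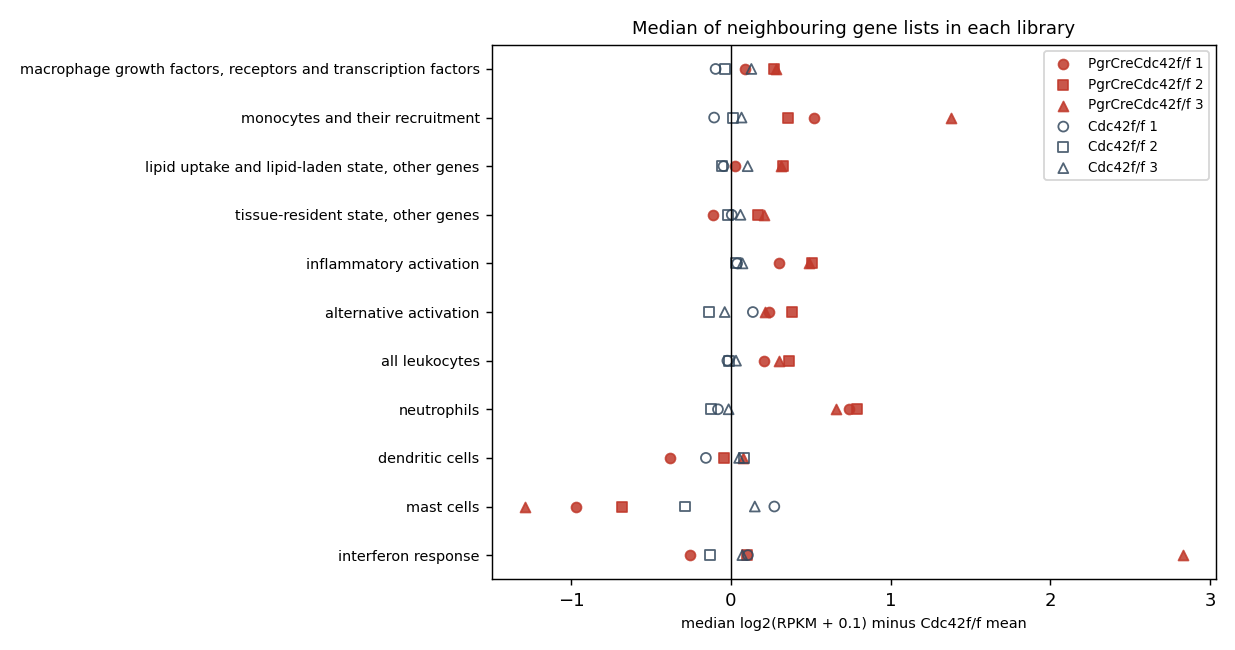
Median of further gene lists in each library, as log2(RPKM + 0.1) minus the Cdc42f/f mean of each gene, with filled red symbols for PgrCreCdc42f/f and open symbols for Cdc42f/f libraries and the shape giving the replicate. The interferon list reaches 2.83 in PgrCreCdc42f/f library 3, and the mast cell list lies at -0.97, -0.68 and -1.29 in PgrCreCdc42f/f libraries.

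Lists of other cell types show the setting of these values. Of 17 genes common to leukocytes 15 had a positive difference, 0 were called by limma, and the median was 0.31. For 9 of the 17 all PgrCreCdc42f/f libraries lay above all Cdc42f/f libraries, against 13.5% of all tested genes. Ptprc, which encodes the CD45 that the study stained, is among the 9 (log2 difference 0.43, limma adjusted p = 0.143). The summed RPKM of the list was 175 to 214 in PgrCreCdc42f/f libraries and 171 to 176 in Cdc42f/f libraries. The 8 tested dendritic cell genes had a median of -0.051, with groups apart for 1 gene higher and 2 genes lower in PgrCreCdc42f/f libraries. The shares of all tested genes were 13.5% and 13.9%. The 6 tested mast cell genes had a median of -1.01, and Tpsb2, a mast cell tryptase, fell to 1.02, 1.18 and 1.10 RPKM in PgrCreCdc42f/f libraries, against 2.51, 1.96 and 2.47 RPKM in Cdc42f/f libraries (limma adjusted p = 0.0392). The 8 fibroblast genes had a median of -0.56 and summed RPKM of 481 to 683 in PgrCreCdc42f/f libraries and 674 to 933 in Cdc42f/f libraries. The 8 smooth muscle genes had a median of 0.44, with summed RPKM of 2399 to 2966 in PgrCreCdc42f/f libraries and 1700 to 2636 in Cdc42f/f libraries. Among lists of T and NK cells, B cells, blood and lymphatic endothelium, epithelium, red blood cells, adipocytes and ovarian cells, Pdpn, a membrane glycoprotein of lymphatic endothelium and other cells, was the only gene called by limma, and it fell to a mean of 23.2 RPKM in PgrCreCdc42f/f libraries, against 61.1 RPKM in Cdc42f/f libraries (limma adjusted p = 0.0374). The 6 adipocyte genes, of which Lep was at 0 in all libraries, summed to 0.811 to 1.95 RPKM in PgrCreCdc42f/f libraries and 4.72 to 10.8 RPKM in Cdc42f/f libraries. The part of these other cell types in the values of the macrophage genes was not tested.

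The promoters of the genes were read for the letters that PU.1 binds. RefSeq (GRCm38.p6) gave a window of 300 bases, 250 before and 50 after the annotated start, for 28 of the 35 genes, and none is shown for Adgre1, Cd86, Cd14, Msr1, Clec4n, C1qa and Tyrobp. The core GAGGAA was found on either strand in 17 of the 28 genes (60.7%), against 31.2% of 27025 genes with such a window. The longer GAGGAAGT, which holds the core within it, was found in C1qc, Ctss, F13a1 and Fcgr4, or 14.3%, against 3.69% of all genes. The composite motif of PU.1 with an interferon regulatory factor, GGAA followed after any 2 bases by GAAA, was found in Cd68, Clec7a, Cybb, Fcgr2b and Folr2, or 17.9%, against 3.16% of all genes. A match describes letters, not a bound site, and the genes were not chosen at random. The windows of 3 of these 4 genes are shown because they belong to the called gene Ctss and to genes of the C1q and Fc receptor groups. Capitals mark GAGGAA or GAGGAAGT, or their complements TTCCTC and ACTTCCTC where the match is on the other strand.

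The window of Ctss is chr3:95526536-95526835 on the plus strand, that of C1qc is chr4:136892865-136893164 on the minus strand, and that of Fcgr4 is chr1:171018676-171018975 on the plus strand, each written from 5′ to 3′ of the gene.
Ctss: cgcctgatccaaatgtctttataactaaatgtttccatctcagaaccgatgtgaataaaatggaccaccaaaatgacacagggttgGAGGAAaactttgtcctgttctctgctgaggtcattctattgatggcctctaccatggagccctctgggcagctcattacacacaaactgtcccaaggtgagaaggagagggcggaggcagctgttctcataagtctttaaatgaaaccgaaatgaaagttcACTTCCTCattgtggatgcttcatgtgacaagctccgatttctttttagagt
C1qc: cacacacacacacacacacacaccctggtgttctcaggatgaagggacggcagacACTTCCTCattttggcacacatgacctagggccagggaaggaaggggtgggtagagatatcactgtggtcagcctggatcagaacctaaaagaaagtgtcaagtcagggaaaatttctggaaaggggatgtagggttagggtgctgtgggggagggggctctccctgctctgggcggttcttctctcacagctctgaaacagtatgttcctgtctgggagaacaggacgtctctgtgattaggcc
Fcgr4: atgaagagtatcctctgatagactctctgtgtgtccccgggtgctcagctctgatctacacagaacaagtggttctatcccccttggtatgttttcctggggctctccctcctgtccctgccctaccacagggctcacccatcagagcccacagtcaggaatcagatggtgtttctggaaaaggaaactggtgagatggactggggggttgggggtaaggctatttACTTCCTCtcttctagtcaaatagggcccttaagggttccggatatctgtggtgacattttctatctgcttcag
In Ctss a core begins 164 bases before the start and the longer match begins 2 bases before it, while the longer match begins 195 bases before the start in C1qc and 24 before it in Fcgr4, counted to the first capital.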

How the data were processed

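RNA of whole oviducts was sequenced on a BGISEQ-500 from 6 TRIzol preparations of total RNA, 3 per genotype, with groups and replicate numbers taken from the sample titles. The authors deposited one table of RPKM values for 55276 gene symbols, and 0 columns were of other samples. The submitters' processing notes name HISAT2, edgeR, mm10 and GRCm38, whereas the methods name Tophat2. Which of these made the table, and whether counting used strand, is not given in the sources used here.

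Multiplying RPKM by GENCODE M21 exon lengths gave whole reads, within 0.01 of a read, in all 6 libraries for 98.8% of 35358 rows, so that 1 read in 2 kb is worth 0.0104 to 0.0118 RPKM. Of the recovered read numbers from 1 to 20, 64.9% were even. The reason was not tested, so the read numbers may not count independent fragments. The fit took log2(RPKM + 0.1) of every gene that reached 0.5 RPKM in 3 or more libraries and used limma 3.58.1 (R 4.3.3; eBayes with a variance trend, no covariates, Benjamini-Hochberg, adjusted p below 0.05), after the fit was tested on simulated data. Differences are PgrCreCdc42f/f minus Cdc42f/f. The permutation tests used scipy 1.17.1. Genes and lists were chosen with earlier results of these data known. All 35 genes are named; from other lists, the called genes and at most the 3 with the smallest p, unless marked. The result of 1 gene is not reported here. Alternatives were other pseudocounts (1 and 0.01), filters (none, or a mean of at least 2 RPKM), scalings (median ratio, quantile), a fit with the replicate number as a block, one without the variance trend, limma voom on recovered reads, and leaving out each library.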

Additional observations from a re-analysis of the deposited data

How the results depend on the processing

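The direction of 31 of the 35 differences was the same under every alternative run. Reversals occurred where a library was left out, for Cd163 (range over the left-out fits -0.025 to 0.67, negative without PgrCreCdc42f/f library 1), Folr2 (-0.69 to 0.17, with 0.17 without PgrCreCdc42f/f library 1 and 0.091 without Cdc42f/f library 2), Clec7a (-0.48 to 0.033, with 0.033 without PgrCreCdc42f/f library 1 and 0.0088 without library 3) and Gpnmb (-0.27 to 0.17, with 0.031 and 0.11 without PgrCreCdc42f/f library 1 or 3 and 0.038 and 0.17 without Cdc42f/f library 2 or 3). The count of macrophage genes called higher, 3 with all libraries, was 0 without a filter on low values, 1 without a variance trend, 2 with a pseudocount of 0.01 (Msr1 was lost) and between 0 and 5 with a library left out: 5 without PgrCreCdc42f/f library 1, 1 without library 3, and 0 without PgrCreCdc42f/f library 2 or any Cdc42f/f library. Of all genes, 9 to 132 were then called higher, against 134. Of the genes in the other lists 5 were called higher and 2 lower. These counts were 2 and 0 without a filter, 3 and 1 without a variance trend, 10 and 4 with limma voom on the recovered reads, and 1 to 5 and 0 to 1 with a library left out, and 1 was called lower with a mean of at least 2 RPKM. Without a filter or a variance trend, and with limma voom, 57, 75 and 253 of all genes were called higher and 51, 112 and 258 lower.

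The median of the 35 genes, 0.61, lay between 0.52 and 0.73 with a library left out. Group medians moved by more than their spread between libraries for resident genes (0.66) and pattern recognition (0.068) with a mean of at least 2 RPKM, where fewer genes are tested, and for the oxidase (0.38) and costimulation (0.44) with a pseudocount of 1. With the replicate number as a block 0 macrophage genes were called, 0 of the other lists in either direction, and 0 of all genes. Deviations of equally numbered libraries correlated at -0.033, -0.074 and 0.081, so the numbers are not known to pair the samples. Depth limits Folr2, Clec4n and Msr1 most, with 22, 23 and 40 reads in their lowest library.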
